A study of Mus musculus with 15 samples.

Results

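The matrix metalloproteinases (MMPs), the ADAMTS proteases and the tissue inhibitors of metalloproteinases (TIMPs) were followed through cultured bone marrow endothelial cells (BMECs), lung cultures and marrow mesenchymal stromal cells. Members were taken by gene symbol, as every gene of the count table named Mmp, Adamts or Timp followed by a number, which gave 46 of 44674 genes: 23 MMPs, 19 ADAMTS genes and 4 TIMPs. MMPs are zinc-dependent endopeptidases that are made as inactive proenzymes and that together can cleave most components of the extracellular matrix. ADAMTS proteases share the catalytic zinc site and carry thrombospondin repeats, and they process proteoglycans, procollagens and von Willebrand factor. TIMPs bind the active site of many of these enzymes and block it, though not every TIMP blocks every enzyme. Around sprouting vessels the balance of enzyme and inhibitor is known to govern how basement membrane and interstitial collagen are opened and rebuilt.

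Bulk RNA-seq covered 15 libraries and 8 conditions. Emcn- ECs of lung cultures (Lung) and both P0 populations, the Emcn+ and the Emcn- BMECs, had 2 libraries each and were sorted as DAPI-CD45-tdTomato+ cells at day 14, before any passage, from cultures of whole tissue grown in EGM-2. Emcn is endomucin, the surface sialomucin used for the sort. For passaged Emcn- BMECs there were 2 libraries at each of P1, P2 and P3 and 1 library at P4. All of these came, by the methods, from tamoxifen-injected Tie2-CreERT2;Rosa26-tdTomato mice of 4 to 6 months, in which the Tek promoter drives the Cre recombinase. BM MSC (2 libraries) were tdTomato+ CD45- cells of Osx-Cre;Rosa26-tdTomato mice grown in MesenCult, so that they differ from the ECs in mouse line, Cre driver and medium. The labels list the animals as WT, whereas the methods name the reporter alleles. Replicates were independent cultures from different animals by the reporting summary. That does not cover libraries of different conditions. By the paper both P0 populations were sorted from P0 cultures, and the later passages were serial. Which libraries share a culture is not stated in the sources used here, and the main fit treated all 15 as independent.

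The labelled cell types were checked against defining genes before the members were read. In P0 Emcn+ BMECs the 10 endothelial markers summed to 12279 and 10492 CPM (counts divided by the library total and scaled alike in every library), with Cdh5, VE-cadherin, at 6223 and 5118 CPM. In P0 Emcn- BMECs the same markers summed to 334 and 164 CPM, in Lung to 328 and 1066 CPM and at P1 to P4 to between 135.0 and 182.8 CPM. Cdh5 was at 120 and 6.35 CPM in P0 Emcn- BMECs, at 39.5 and 171 CPM in Lung and at no more than 2.33 CPM in any passaged library. In BM MSC the endothelial markers summed to 179 and 487 CPM, with Cdh5 at 7.86 and 156 CPM. BM MSC replicate 2 was thus above both P0 Emcn- libraries. The 9 fibroblast and mesenchymal markers, led by Col1a1, Col1a2 and Col3a1, summed to 237 and 314 CPM in P0 Emcn+ BMECs and to at least 4395 CPM in every other library. The data therefore go against an endothelial label for the Emcn- libraries, and the names are used here only as the sort gave them. BM MSC had all 9 mesenchymal markers above 10 CPM, Col2a1 at 1418 and 2095 CPM and the osteolineage genes Alpl at 106 and 49.0 CPM and Runx2 at 77.9 and 56.8 CPM. The osteolineage gene Spp1 was at 2276 and 3478 CPM there, below its 5592 and 5387 CPM at P3. The chondrocyte gene Acan was at 1.04 and 0.152 CPM in BM MSC.

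Library totals ran from 9914620 counts (P0 Emcn- replicate 2) to 39718807 counts (P0 Emcn- replicate 1), and 3 counts, the upper limit for a gene with no count, amount to between 0.0755 and 0.303 CPM depending on the library. The labels give 4 batches. Batch d is replicate 1, and batch a replicate 2, of Lung and both P0 populations. Replicate 1 of P1 to P3 and P4 are batch b, and replicate 2 of P1 to P3 and both BM MSC libraries are batch c. Passaged and BM MSC libraries had batches b and c to themselves, so wherever they are set against P0 libraries batch and condition cannot be told apart.

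Of the 46 members, 29 reached 10 CPM and 18 reached 100 CPM in at least 1 library, and 11 were at 10 CPM or more in all 15. At the other end 11 members stayed below 1 CPM everywhere, among them the collagenases Mmp1a and Mmp1b, matrilysin Mmp7, and Mmp24 and Mmp25. Enamelysin, Mmp20, which acts in tooth enamel, had no count in any library, and Mmp7 had 1 count in all. The filter on low counts was passed by 41 members. Mmp1b, Mmp7, Mmp20, Mmp21 and Adamts19 were not tested.

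Levels between genes were compared as CPM per kb of exon. On that scale Timp2 had the highest mean in 7 of the 8 conditions, and in P0 Emcn- BMECs Mmp2 did, at 445 CPM per kb (609 and 281). In P0 Emcn+ BMECs the membrane-anchored Mmp14 was the highest protease at 98.3 CPM per kb, followed by Adamts7 at 57.1. The 4 TIMPs summed to 265 and 257 CPM per kb in P0 Emcn+ BMECs, 853 and 556 in P0 Emcn- BMECs, 1039 and 868 in Lung, and 1130.2 and 1111 at P1. They summed to 1899.7 and 1727 CPM per kb at P2, 2474 and 2203 at P3, 2080.5 at P4 and 1568 and 2153 in BM MSC. The summed level of the 23 MMPs did not follow the TIMP sum through the passages. It was 178 and 152 CPM per kb in P0 Emcn+ BMECs, where the TIMP sum was lowest too. In P0 Emcn- BMECs it was 1005 and 534, and in Lung 1030 and 899. It stayed between 375 and 503 in all passaged libraries and was 546 and 607 in BM MSC.

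**Figure D1:**
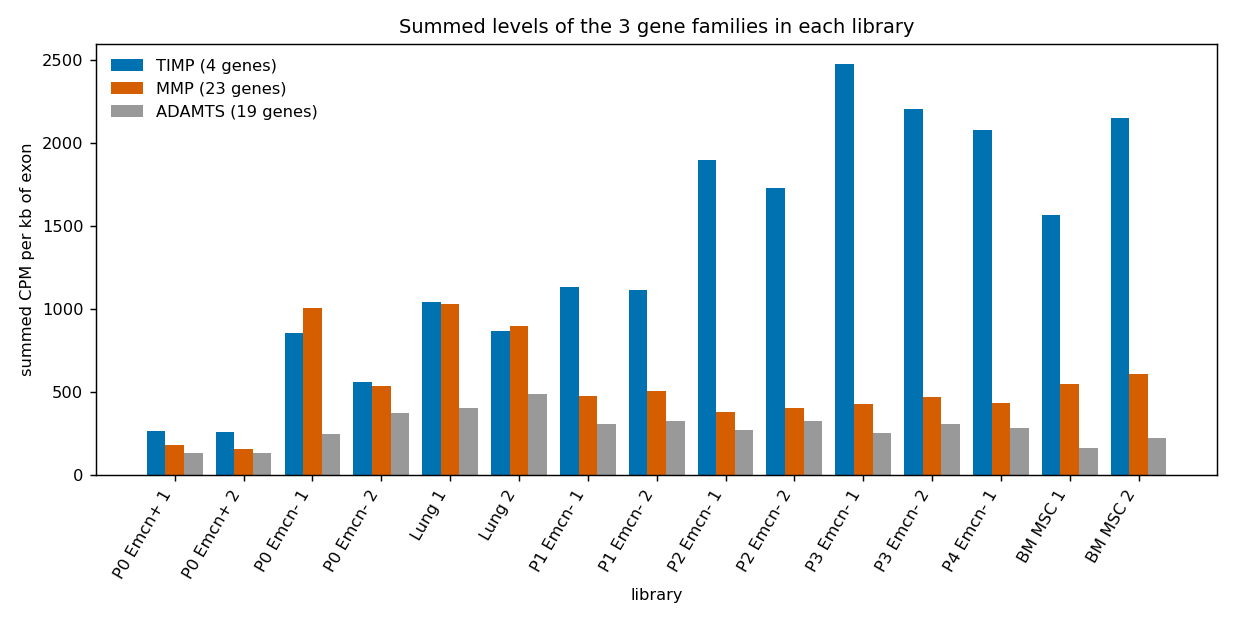
Summed level (CPM per kb of merged exons, linear axis) of the 4 TIMP, 23 MMP and 19 ADAMTS genes in each of the 15 libraries, 1 bar per family. TIMP sums run from 257 in P0 Emcn+ replicate 2 to 2474 in P3 Emcn- replicate 1, and MMP sums are at or above TIMP sums in P0 Emcn- replicate 1 (1005 against 853) and Lung replicate 2 (899 against 868).

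The ratio of summed TIMP to summed MMP level was 1.49 and 1.70 in P0 Emcn+ BMECs, 0.848 and 1.04 in P0 Emcn- BMECs and 1.01 and 0.965 in Lung. P1 gave 2.39 and 2.21, P2 5.07 and 4.32, P3 5.79 and 4.69, P4 4.8 and BM MSC 2.87 and 3.55. Every passaged library was thus above every P0 and Lung library. These are transcript ratios, with no measure of protein or activity.

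Each comparison was tested with edgeR's quasi-likelihood test over all 19401 genes that passed the filter, and a call needed a log2 fold change beyond 1.5 in either direction together with a Benjamini-Hochberg adjusted p below 0.05. P0 Emcn- BMECs are the control of 4 of the 6 comparisons, so those 4 are not independent of each other. Since these are bulk samples, fewer cells of a type and less RNA per cell cannot be told apart in any of them.

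P0 Emcn+ BMECs differed from P0 Emcn- BMECs in 25 of the 41 tested members, 6 higher and 19 lower, where 7.79% of all tested genes were called higher and 11.4% lower. The median log2 fold change was -1.54 over the tested members and -0.06 over all tested genes. All 3 procollagen N-propeptidases and both gelatinases were lower, as were 5 of the 7 proteoglycanases and 2 of the 3 stromelysin-type MMPs. Among those 5, Adamts8 and Adamts20 rest on few counts, 22 and 1 for Adamts8 and 3 and 6 for Adamts20 in the P0 Emcn- libraries against 0 in P0 Emcn+. Higher were Mmp15, Adamts7, Timp3, Adamts13, Adamts4 and Adamts9. The 10 macrophage and leukocyte markers moved with this comparison: they summed to 648 and 645 CPM in P0 Emcn+ and to 235 and 286 CPM in P0 Emcn- libraries, with Ptprc (CD45) at no more than 7.73 CPM. The fibroblast and mesenchymal markers stood at 237 and 314 CPM against 21464 and 16422 CPM. The part of either list in the result was not tested.

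Lung differed from P0 Emcn- BMECs in 6 tested members, 3 higher (2.13% of all genes) and 3 lower (1.70%). Mmp3, Mmp8 and Timp3 were higher and Mmp9, Mmp11 and Mmp13 lower, and none of the 18 tested ADAMTS genes was called. Without Lung replicate 1 the count was 3. The macrophage markers summed to 24.4 and 22.8 CPM in Lung against 235 and 286 CPM in P0 Emcn- BMECs, and their part was not tested.

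BM MSC differed from P0 Emcn- BMECs in 14 tested members, 5 higher (11.3% of all genes) and 9 lower (7.45%). Mmp13, Timp3, Mmp10, Mmp16 and Mmp15 were higher. The ADAMTS genes called, Adamts12, Adamts13, Adamts14 and Adamts15, were all lower, together with Mmp8, Mmp9, Mmp11, Mmp27 and Timp4. The macrophage markers summed to 24.0 and 34.7 CPM in BM MSC against 235 and 286 CPM in P0 Emcn- BMECs, and their part was not tested. Against the mean of P1 to P3, 14 tested members were called in BM MSC, 8 higher (8.42%) and 6 lower (5.81%). These 8 were Mmp9, Mmp10, Mmp13, Mmp16, Adamts6, Adamts16, Adamts18 and Timp1.

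At the first passage 10 tested members changed against P0, 2 higher (5.77% of all genes) and 8 lower (3.07%). The pair that rose were the inhibitors Timp2 and Timp3. Timp1, Mmp9, Mmp11, Mmp12, Adamts4, Adamts7, Adamts10 and Adamts13 fell. The fibroblast and mesenchymal markers moved with this comparison, from 21464 and 16422 CPM in P0 Emcn- to 6164 and 6821 CPM at P1. The macrophage markers were at 235 and 286 CPM in P0 Emcn- and at 78.2 and 249 CPM at P1. P1 replicate 2 thus lay within the P0 Emcn- range. The part of either list was not tested. The count was 5 without P0 Emcn- replicate 1 and 5 without P1 replicate 1. Between P1 and P3 no tested member was called by edgeR, where 0.0773% of all genes were called higher and 0.144% lower. At an unadjusted p under 0.05 there were 12 of the 41 members and 2634 of all 19401 genes. DESeq2's Wald test called 4 of 33 members and 303 of 15639 genes. With the replicate block edgeR called 2 of the 41 members, Timp3 and Mmp11, and 106 of 19401 genes.

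**Figure D2:**
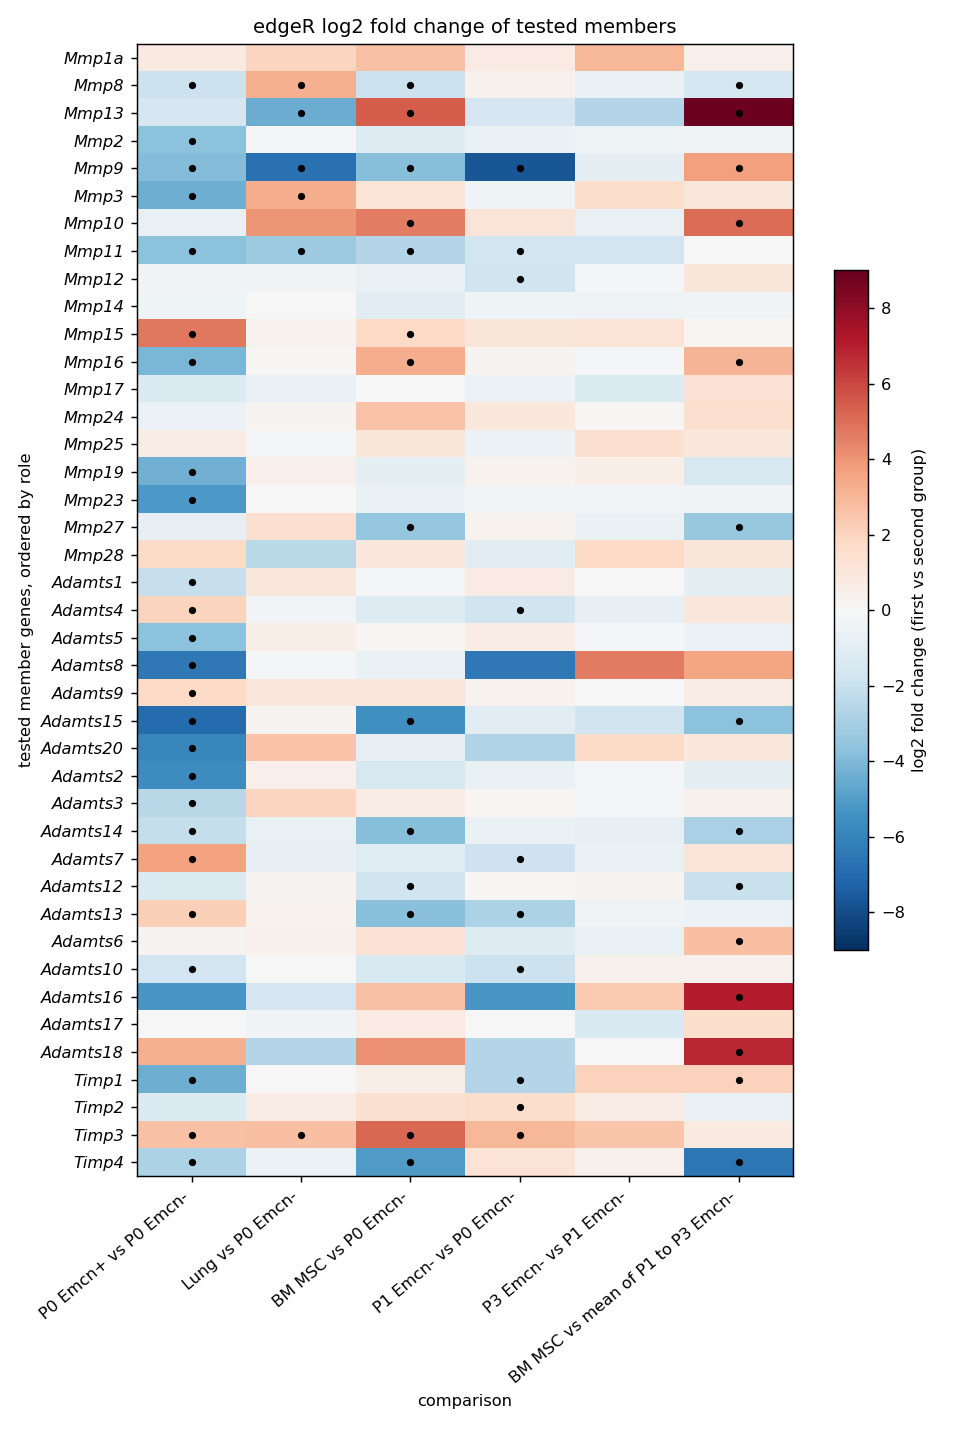
Log2 fold change by edgeR (colour, red higher and blue lower in the first group) of the 41 tested members, ordered by role, in the 6 comparisons. A dot marks a call, 25 in P0 Emcn+ against P0 Emcn- BMECs and 0 in P3 against P1; where all libraries of a group are at 0 counts, as for Adamts8 in P0 Emcn+, the fitted value depends on the prior count.

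The inhibitors moved separately from each other. Timp3, the TIMP that is held in the matrix by its affinity for sulphated glycosaminoglycans (chr10:86300372-86349506, + strand), was at 837 and 782 CPM in P0 Emcn+ and at 128 and 145 CPM in P0 Emcn- BMECs. It was at 1055 and 668 CPM in Lung and at 3266 and 6042 CPM in BM MSC. In batch b it was at 1097 CPM at P1, 3931 at P2, 6683 at P3 and 5943 at P4, and in batch c at 798, 2146 and 3792 CPM from P1 to P3. P0 Emcn- BMECs were thus the lowest of all conditions, and no other library came below 668 CPM. Against P0 Emcn- BMECs, Timp3 rose by 2.60 ± 0.45 on the log2 scale (estimate ± SE, adjusted p = 0.00142) in P0 Emcn+ and by 2.96 ± 0.46 (adjusted p = 0.00252) at P1. The values were 2.73 ± 0.45 (adjusted p = 0.00851) in Lung and 5.18 ± 0.51 (adjusted p = 7.97e-05) in BM MSC. The Lung call ended when replicate 1 of P0 Emcn- was left out (2.65, adjusted p = 0.0538). From P1 to P3 the log2 fold change was 2.51 ± 0.45 with an adjusted p of 0.0542, just outside the threshold, and it was 2.66 within batch b and 2.27 within batch c. With batch terms in the fit (replicate block) it was called, at 2.46 and an adjusted p of 0.0276. Timp3 shares 1733 exonic bases with Syn3 on the opposite strand, and whether the authors' counting used strand is not stated in the sources used here.

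Timp2, which besides inhibiting takes part with Mmp14 in the activation of pro-Mmp2 (chr11:118301069-118355740, - strand), was at 578 and 561 CPM in P0 Emcn+, 1084 and 1654 in P0 Emcn-, and 2086 and 2119 in Lung. P1 had 3727 and 3709 CPM, P2 5033 and 5298, P3 5554 and 6093, P4 4491, and BM MSC 3123 and 3378. The P0 Emcn+ libraries were the lowest and the passaged libraries the highest, with no overlap with any P0 or Lung library. It rose by 1.60 ± 0.23 on the log2 scale from P0 to P1 (adjusted p = 0.00166), a call that ended on the fold limit without P0 Emcn- replicate 1 (1.32, adjusted p = 0.00491) and on the test when the fit was limited to the 2 conditions concerned (1.58, adjusted p = 0.0811). In P0 Emcn+ against P0 Emcn- BMECs the value was -1.23 ± 0.23 (adjusted p = 0.0021), within the fold limit.

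Timp1, the inducible soluble TIMP (chrX:20870166-20874735, + strand), was at 12.3 and 14.8 CPM in P0 Emcn+ BMECs and at 495 and 99.6 CPM in P0 Emcn- BMECs. It was at 331 and 214 CPM in Lung and at 324 and 483 CPM in BM MSC. In the passages P1 had 32.5 and 51.9 CPM, P2 had 109 and 90.1, P3 had 199 and 152 and P4 had 172. The lowest values were those of P0 Emcn+ and P1, and the P0 Emcn- replicates differed from each other more than P1 differed from P2. It was lower in P0 Emcn+ BMECs by a log2 fold change of -4.43 ± 0.66 (adjusted p = 0.000585), which was -2.82 without P0 Emcn- replicate 1. At P1 it fell by 2.67 ± 0.61 on the log2 scale (adjusted p = 0.0166). That call ended without P0 Emcn- replicate 1 (-1.09, adjusted p = 0.105), P1 replicate 1 (-2.39, adjusted p = 0.126) or P1 replicate 2 (-3.01, adjusted p = 0.0647), and when the fit was limited to the 2 conditions concerned (-2.68, adjusted p = 0.111). BM MSC was higher than P1 to P3 by 2.06 ± 0.43 (adjusted p = 0.00501) and by 2.08 within batch c, and the call ended without BM MSC replicate 2 (1.78, adjusted p = 0.055). From P1 to P3 the log2 fold change was 2.10 ± 0.59 (adjusted p = 0.166).

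Timp4 was the scarcest TIMP, at 0.48 and 1.39 CPM in P0 Emcn+, 4.81 and 8.78 in P0 Emcn- and 4.61 and 4.29 in Lung. It was at 12.9 to 21.7 CPM in the libraries of P1 to P3, at 24.4 CPM at P4, and at 0.11 and 0.24 CPM in BM MSC, from 4 and 8 counts. The P0 Emcn+ libraries were lower than their Emcn- counterparts (log2 fold change -2.82 ± 0.48, adjusted p = 0.00136), and lower in BM MSC than in P1 to P3 (-6.53 ± 0.56, adjusted p = 4.49e-05).

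**Figure D3:**
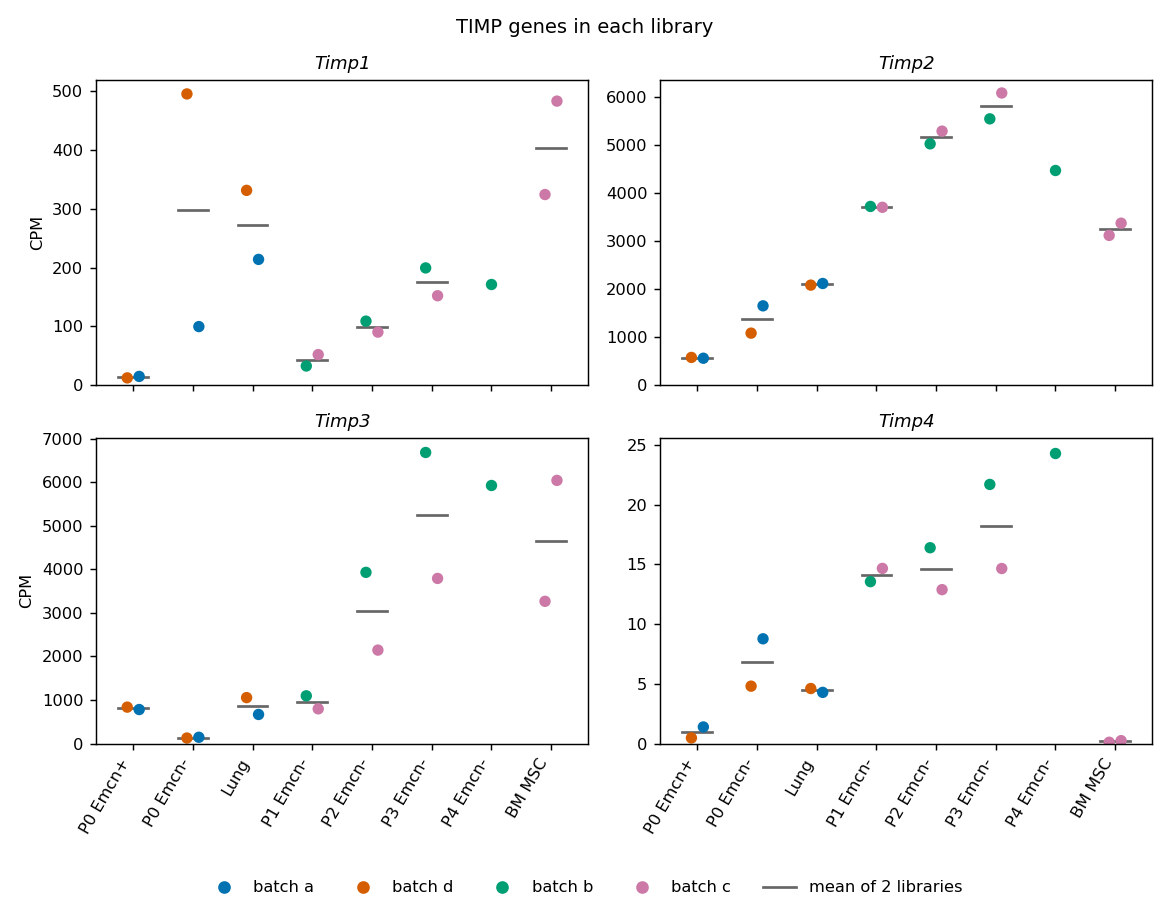
CPM (linear axis, own scale in each panel) of Timp1, Timp2, Timp3 and Timp4 in each library, 1 point per library coloured by batch, with the mean of 2 libraries as a line. Timp2 runs from 3709 to 6093 CPM over the P1 to P3 libraries and from 561 to 1654 CPM over the P0 libraries, and Timp3 is lowest in P0 Emcn- BMECs (128 and 145 CPM).

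The interstitial collagenase Mmp13 (ENSMUSG00000050578) and the stromelysin Mmp3 (ENSMUSG00000043613), which cleaves proteoglycans and fibronectin and activates other pro-MMPs, lie in the MMP gene cluster of chromosome 9. In GRCm38 this cluster runs from Mmp13 at 7272514 to the end of Mmp7 at 7699585 and holds 10 members, and Mmp13 and Mmp3 were its only members above 10 CPM in any library. The 250 bases before the RefSeq start site are shown for these 2 genes, whose levels separate BM MSC and Lung from the other conditions, and for Timp1 as an inhibitor outside the cluster, a choice made after the values were seen (GRCm38.p6, + strand, capitals mark matches on either strand to the AP-1 letters TGANTCA, the Runx letters AACCACA, the TATA box TATAAA and the GC box GGGCGG).
Mmp13, chr9:7272264-7272513: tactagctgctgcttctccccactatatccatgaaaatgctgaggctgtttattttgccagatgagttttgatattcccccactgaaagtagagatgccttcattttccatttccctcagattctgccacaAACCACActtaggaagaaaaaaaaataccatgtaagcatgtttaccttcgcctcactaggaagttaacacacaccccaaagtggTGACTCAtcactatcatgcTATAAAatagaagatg
Mmp3, chr9:7445572-7445821: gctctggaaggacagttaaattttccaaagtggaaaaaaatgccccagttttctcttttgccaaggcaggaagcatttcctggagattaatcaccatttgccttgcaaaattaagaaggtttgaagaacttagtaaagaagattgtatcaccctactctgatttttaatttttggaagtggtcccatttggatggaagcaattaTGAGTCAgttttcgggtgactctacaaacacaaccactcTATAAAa
Timp1, chrX:20869916-20870165: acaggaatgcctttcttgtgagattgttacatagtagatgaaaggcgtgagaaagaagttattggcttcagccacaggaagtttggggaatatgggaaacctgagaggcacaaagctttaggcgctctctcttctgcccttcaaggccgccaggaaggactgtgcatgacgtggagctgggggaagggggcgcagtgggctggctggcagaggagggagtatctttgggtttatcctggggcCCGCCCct
The Mmp13 window holds an AP-1 match, TGACTCA, at 35 to 29 bases before the start, a Runx match at 119 to 113 bases and a TATA box match. The Mmp3 window holds TGAGTCA at 46 to 40 bases and a TATA box match, and the Timp1 window holds a GC box match alone. Of 32817 promoter windows of this length 6.75% hold the AP-1 letters, 4.39% the Runx letters, 12.4% the TATA box and 32.7% the GC box. Promoters were given for 32 members, of which 8 hold the AP-1 letters: Mmp1a, Mmp1b, Mmp3, Mmp7, Mmp10, Mmp12, Mmp13 and Mmp20, all of the chromosome 9 cluster. A member was counted if any of its windows held the letters, whereas the shares above are per window. These matches describe letters in a window and no binding was measured.

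Mmp13 was at 301 and 613 CPM in BM MSC. It was at 5.99 and 1.43 CPM in P0 Emcn+, 5.26 and 18.2 in P0 Emcn-, 0.77 and 0.09 in Lung, and 1.13 and 5.99 at P1. At P2, P3 and P4 no library passed 0.78 CPM. BM MSC was thus apart from all other conditions by more than an order of magnitude, while the replicates of P0 Emcn+, P0 Emcn-, Lung and P1 lay far apart from each other. Mmp13 was higher in BM MSC than in P0 Emcn- BMECs by a log2 fold change of 5.43 ± 1.00 (adjusted p = 0.00265), and than in P1 to P3 by 8.80 ± 0.73 (adjusted p = 3.7e-05) and 8.14 within batch c. In Lung it was lower than in P0 Emcn- BMECs (-4.44 ± 1.10, adjusted p = 0.0462), a call that ended without Lung replicate 1 (-6.81, adjusted p = 0.124), Lung replicate 2 (-3.76, adjusted p = 0.169) or, on the control side, replicate 2 (-3.35, adjusted p = 0.129). It also ended when the fit was limited to the 2 conditions concerned (-4.58, adjusted p = 0.157). The chondrocyte gene Col2a1 and the osteolineage genes Alpl and Runx2 also had their highest levels in BM MSC. At low levels so did Sp7 (2.50 and 5.60 CPM) and Bglap (1.52 and 1.07 CPM). Spp1 and Ibsp did not. Spp1 was at 2276 and 3478 CPM in BM MSC against 5592 and 5387 CPM at P3. Ibsp was at 22.7 and 14.0 CPM against 137 CPM in P0 Emcn- replicate 2. The osteolineage list summed to 2487 and 3604 CPM in BM MSC and to 5611 and 5408 CPM at P3. The part of these genes was not tested.

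Mmp3 was at 718 and 556 CPM in Lung, the highest values of the series. It was at 2.63 and 3.75 CPM in P0 Emcn+ BMECs, 114 and 21.7 in P0 Emcn- BMECs, and 95.8 and 212 in BM MSC. Along the passages P1 had 37.1 and 56.8 CPM, P2 had 52.4 and 63.7, P3 had 116 and 156 and P4 had 123. The Lung libraries were above all others, and the P0 Emcn+ libraries were below all others. The log2 fold change was 3.28 ± 0.66 in Lung against P0 Emcn- (adjusted p = 0.0191), 2.73 within batch d and 4.72 within batch a. It was 4.95 without P0 Emcn- replicate 1 and was no longer called without Lung replicate 1 (3.05, adjusted p = 0.0746) or when the fit was limited to the 2 conditions concerned (3.29, adjusted p = 0.166). In P0 Emcn+ BMECs it was -4.40 ± 0.71 (adjusted p = 0.000947), and -2.72 without P0 Emcn- replicate 1. The rise from P1 to P3 was not called (1.57 ± 0.62, adjusted p = 0.305).

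Neutrophil collagenase, Mmp8, and stromelysin-2, Mmp10, were low throughout. Mmp8 reached 4.67 and 3.92 CPM in Lung and at most 0.75 CPM elsewhere, and was called higher in Lung (log2 fold change 3.19 ± 0.54, adjusted p = 0.00886). Mmp10 was at 2.60 and 2.49 CPM in Lung, at 0.39 and 7.40 CPM in BM MSC, and at no more than 0.54 CPM in any other library. The neutrophil markers S100a8, S100a9, Elane, Mpo, Ltf and Camp summed to no more than 2.17 CPM in any library.

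Mmp11, stromelysin-3, a furin-activated MMP with little activity on collagen (chr10:75923222-75936496, - strand), was at 214 and 127 CPM in P0 Emcn- BMECs. It was at 13.5 and 12.4 CPM in P0 Emcn+, 16.7 and 17.8 in Lung and 21.4 and 29.4 in BM MSC. In batch b it was at 42.7, 15.4, 9.20 and 8.66 CPM from P1 to P4, and in batch c at 51.4, 27.3 and 18.4 CPM from P1 to P3. The P0 Emcn- libraries were above all others, and the order P1, P2, P3 was the same in both batches. It was called lower in P0 Emcn+ (-3.69 ± 0.39, adjusted p = 6.8e-05), in Lung (-3.24 ± 0.38, adjusted p = 0.00188) and in BM MSC (-2.66 ± 0.37, adjusted p = 0.00062). At P1 the log2 fold change was -1.70 ± 0.36 (adjusted p = 0.0116), a call that ended without P0 Emcn- replicate 1 (-1.27, adjusted p = 0.0744), without P1 replicate 1 (-1.60, adjusted p = 0.094) and without P1 replicate 2 (-1.82, adjusted p = 0.0577). From P1 to P3 it was -1.75 ± 0.36 (adjusted p = 0.0809), and with the replicate block -1.82 (adjusted p = 0.0284), which is a call. Mmp11 shares 155 exonic bases with Chchd10 on the opposite strand.

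Of the gelatinases, which cleave denatured and basement membrane collagen, Mmp2 (chr8:92827291-92853420, + strand) was at 85.8 and 144 CPM in P0 Emcn+ and at 2054 and 946 CPM in P0 Emcn- BMECs. It was at 1282 and 1258 CPM in Lung, between 622 and 915 CPM in P1 to P4, and at 870.3 and 394 CPM in BM MSC. The P0 Emcn+ libraries were below all others, and all passaged and BM MSC libraries were below all P0 Emcn- and Lung libraries. The log2 fold change in P0 Emcn+ was -3.68 ± 0.47 (adjusted p = 0.000207), with -4.54 within batch d and -2.69 within batch a, and no other comparison called Mmp2. Mmp9 (chr2:164940780-164955850, + strand), known from osteoclasts, macrophages and neutrophils, was at 10.9 and 5.55 CPM in P0 Emcn- BMECs and at no more than 0.88 CPM in any other library. It was called lower in P0 Emcn+ (-3.87 ± 0.84, adjusted p = 0.00515). Only 2 counts were left in the P1 libraries against 488 in P0 Emcn-, a ratio of 302 (95% counting interval 83.3 to 2503). In Lung, at 4 counts, it was called lower with an adjusted p of 0.00634, and without Lung replicate 1 no longer (-6.39, adjusted p = 0.0585). In BM MSC it was called lower than in P0 Emcn- (-3.82 ± 0.83, adjusted p = 0.00626), but not with the replicate block (-3.20, adjusted p = 0.0818). Against P1 to P3 it was called higher in BM MSC (3.72 ± 0.79, adjusted p = 0.00574), but not without BM MSC replicate 2 (2.49, adjusted p = 0.12). Macrophage elastase, Mmp12, was at 3.64 to 5.75 CPM in the P0 and Lung libraries and at 1.16 to 1.51 CPM in the passaged ones, and fell at P1 (-1.78 ± 0.31, adjusted p = 0.00469). Macrophage markers were at 235 and 286 CPM in P0 Emcn- and at 78.2 and 249 CPM at P1. Only P1 replicate 1 was thus below the P0 Emcn- libraries. In P1 replicate 2 Mmp9 was at 0.036 CPM and Mmp12 at 1.51 CPM. The macrophage markers were at 11.8 to 44.4 CPM from P2 on, and at 648 and 645 CPM in P0 Emcn+. Their part in the levels of Mmp9 and Mmp12 was not tested.

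**Figure D4:**
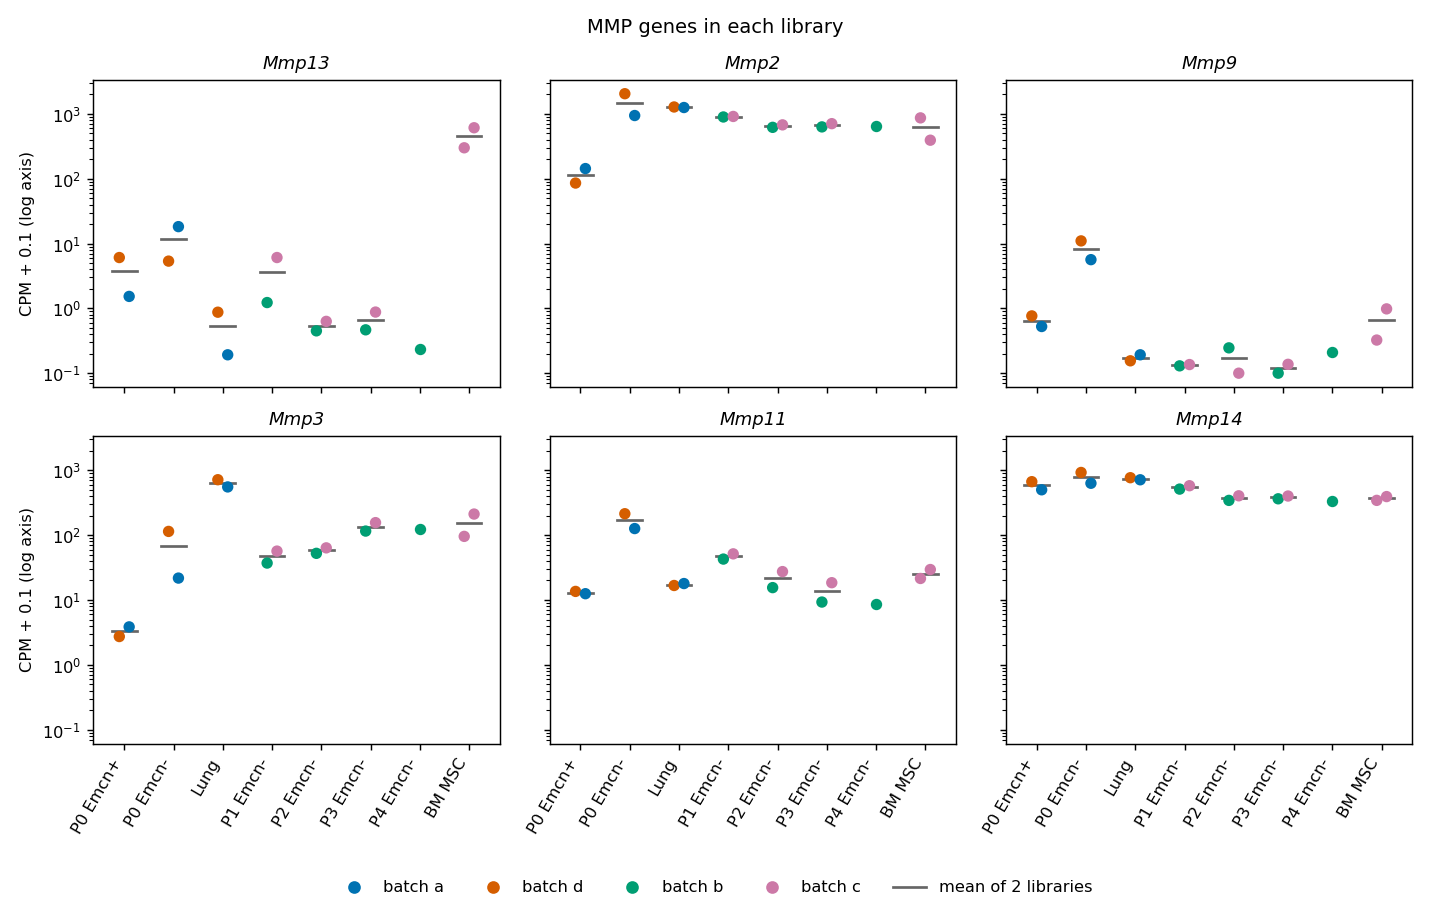
CPM + 0.1 (log axis, shared by all panels) of Mmp13, Mmp2, Mmp9, Mmp3, Mmp11 and Mmp14 in each library, 1 point per library coloured by batch, with the mean of 2 libraries as a line. Mmp13 stands out in BM MSC (301 and 613 CPM), Mmp3 in Lung (718 and 556 CPM) and Mmp9 and Mmp11 in P0 Emcn- BMECs, while Mmp14 stays between 334 and 929 CPM throughout.

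Among the membrane-type MMPs, Mmp14 (MT1-MMP), a pericellular collagenase and the activator of pro-Mmp2, was the most even member. It ran from 334 CPM at P4 to 929 CPM in P0 Emcn- replicate 1 and was called in none of the 6 comparisons. Against P0 Emcn- BMECs its log2 fold change was -0.38 ± 0.21 in P0 Emcn+ (adjusted p = 0.205) and -0.99 ± 0.21 in BM MSC (adjusted p = 0.00622, within the fold limit). Mmp15 (MT2-MMP) was at 102 and 44.7 CPM in P0 Emcn+ and at 3.75 and 1.61 CPM in P0 Emcn- BMECs, and at 2.65 to 13.8 CPM in all other libraries. It was the member with the largest rise in P0 Emcn+ BMECs (4.72 ± 0.56, adjusted p = 0.000131). The smaller difference of BM MSC from P0 Emcn- (1.81 ± 0.51, adjusted p = 0.0196) was lost without P0 Emcn- replicate 2 (1.39, adjusted p = 0.0927) or BM MSC replicate 1 (1.29, adjusted p = 0.125), and when the fit was limited to the 2 conditions concerned (1.86, adjusted p = 0.0861). Mmp16 (MT3-MMP) was at 63.8 and 37.0 CPM in BM MSC, at 0.38 and 0.23 CPM in P0 Emcn+ and at 2.34 to 9.15 CPM elsewhere. It was called higher in BM MSC against P0 Emcn- (3.30 ± 0.66, adjusted p = 0.00414) and against P1 to P3 (3.05 ± 0.44, adjusted p = 0.000753), and lower in P0 Emcn+ BMECs (-4.09 ± 0.78, adjusted p = 0.00251).

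Mmp19 and Mmp23 separated P0 Emcn+ BMECs from every other condition. Mmp19, which acts on basement membrane components, was at 9.28 and 6.30 CPM in P0 Emcn+ and at 205 and 114 CPM in P0 Emcn- BMECs (log2 fold change -4.32 ± 0.37, adjusted p = 1.94e-05), and at 83.1 to 313 CPM elsewhere. It shares 789 exonic bases with Tmem198b on the opposite strand. Mmp23 was at 1.74 and 3.01 CPM in P0 Emcn+, at 68.6 and 104 CPM in P0 Emcn- (-5.15 ± 0.32, adjusted p = 3.19e-06) and at 43.8 to 84.6 CPM elsewhere. Mmp28, epilysin, had 26.6 and 18.7 CPM on the Emcn+ side at P0, 10.5 and 3.33 CPM on the Emcn- side, and was called in no comparison. Its values at P1 to P3 were 1.93, 2.54 and 5.11 CPM in batch b and 4.34, 8.75 and 16.1 CPM in batch c.

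The proteoglycanases, ADAMTS enzymes that cleave aggrecan and versican, fell on both sides of the Emcn sort. Adamts15 (chr9:30899155-30922452, - strand) had the largest difference of the members with at least 10 CPM in the higher group: 3.83 and 3.21 CPM in P0 Emcn+ against 556 and 302 CPM in P0 Emcn- BMECs (-6.89 ± 0.55, adjusted p = 1.175e-05). It was at 357 and 601 CPM in Lung and at 4.58 and 12.9 CPM in BM MSC. Along the passages it was at 200.5, 91.9, 48.5 and 66.3 CPM from P1 to P4 in batch b and at 185, 111 and 60.6 CPM from P1 to P3 in batch c. P0 Emcn+ and BM MSC were below all other libraries. The level at P3 was below that at P1 in both batches, by -2.00 and -1.58 on the log2 scale, but the edgeR test did not call it (-1.79 ± 0.43, adjusted p = 0.116). BM MSC was called lower than P0 Emcn- (-5.54 ± 0.51, adjusted p = 5.6e-05) and than P1 to P3 (-3.66 ± 0.44, adjusted p = 0.000266).

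Adamts5 and Adamts1, neighbours on chromosome 16, were also low in P0 Emcn+ BMECs. Adamts5 was at 47.8 and 75.0 CPM there, at 451 and 1179.8 CPM in P0 Emcn- BMECs and at 726 to 1289.6 CPM in all other libraries (-3.70 ± 0.42, adjusted p = 9.99e-05). Adamts1 was at 102 and 101 CPM in P0 Emcn+ and at 259 and 630.3 CPM in P0 Emcn- BMECs (-2.10 ± 0.35, adjusted p = 0.00115), and at 342 to 900.1 CPM elsewhere. Without P0 Emcn- replicate 2 the Adamts1 value was -1.32 (adjusted p = 0.00187), within the fold limit.

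Adamts4 and Adamts9 went the other way. Adamts4 was at 169 and 126 CPM in P0 Emcn+, 44.2 and 30.8 in P0 Emcn-, 23.3 and 38.9 in Lung and 11.8 and 20 in BM MSC, and at 5.11 to 10.1 CPM in the passaged libraries. It was called higher in P0 Emcn+ (2.00 ± 0.31, adjusted p = 0.000714) and lower at P1 (-1.77 ± 0.31, adjusted p = 0.00487), the latter ending on the fold limit without P0 Emcn- replicate 1 (-1.48, adjusted p = 0.0339). Adamts9 was at 68.1 and 73.3 CPM in P0 Emcn+ and at 25.5 and 15.4 CPM in P0 Emcn- BMECs (1.81 ± 0.46, adjusted p = 0.0125), a call that ended without P0 Emcn- replicate 2 (adjusted p = 0.0836). Adamts9 was at 31.0 and 50.9 CPM in Lung, 13.6 to 32.9 CPM in the passaged libraries and 44.0 and 35.8 CPM in BM MSC. It shares 1381 exonic bases with A730049H05Rik on the opposite strand. Adamts8 and Adamts20 had no count in P0 Emcn+ and at most 0.61 CPM in P0 Emcn- BMECs.

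The procollagen N-propeptidases, which trim fibrillar procollagens before fibril assembly, were all lower in P0 Emcn+ BMECs. Adamts2 was at 11.9 and 13.5 CPM there and at 592 and 722 CPM in P0 Emcn- BMECs (-5.66 ± 0.42, adjusted p = 7.94e-06). In the remaining libraries it ran from 124 CPM in BM MSC replicate 1 to 926 CPM in Lung replicate 2. Adamts14 was at 3.30 and 6.49 CPM in P0 Emcn+, 19.9 and 24.9 in P0 Emcn-, 13.6 and 13.6 in Lung, 6.77 to 15.1 in P1 to P4 and 1.21 and 1.74 in BM MSC. It was called lower in P0 Emcn+ (-2.16 ± 0.33, adjusted p = 0.000661) and in BM MSC against P0 Emcn- (-3.83 ± 0.36, adjusted p = 5.92e-05) and against P1 to P3 (-2.91 ± 0.32, adjusted p = 0.00016). Adamts3 was at 0.51 and 0.46 CPM in P0 Emcn+ and at 1.61 to 10.7 CPM in all other libraries. For Adamts14 the BM MSC libraries were lower still than P0 Emcn+. Of the substrate genes Col1a1, Col1a2 and Col3a1, no P0 Emcn+ library was above 90.8 CPM and no other library below 439 CPM for any of the 3.

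Adamts7 and Adamts12 both cleave cartilage oligomeric matrix protein, and in P0 Emcn+ BMECs Adamts7 was called higher and Adamts12 was not called (-1.29 ± 0.27, adjusted p = 0.00404, within the fold limit). Adamts7 (chr9:90163069-90208071, + strand) was at 326 and 392 CPM in P0 Emcn+ and at 45.8 and 12.8 CPM in P0 Emcn- BMECs (3.62 ± 0.54, adjusted p = 0.000555), with 2.87 within batch d and 4.95 within batch a. It was at 12.9 and 21.5 CPM in Lung, 3.44 to 8.29 CPM in the passages and 9.15 and 17.9 CPM in BM MSC, and P0 Emcn+ was thus above every other library. The P1 call (-1.85 ± 0.51, adjusted p = 0.0339) ended without P0 Emcn- replicate 1 (-0.64, adjusted p = 0.355), without P1 replicate 1 (-1.71, adjusted p = 0.182) without P1 replicate 2 (-2.00, adjusted p = 0.116) and when the fit was limited to the 2 conditions concerned (adjusted p = 0.134). Adamts7 shares 122 exonic bases with Tbc1d2b on the opposite strand. Adamts12 was at 35.0 and 36.0 CPM in P0 Emcn+, 82.9 and 94.9 in P0 Emcn-, 87.0 and 118 in Lung, 80.3 to 140 in the passages and 17.2 and 30.7 in BM MSC. It was called lower in BM MSC against P1 to P3 (-2.02 ± 0.24, adjusted p = 0.000276) and against P0 Emcn- (-1.81 ± 0.27, adjusted p = 0.000915), the latter ending on the fold limit without BM MSC replicate 1 (-1.47, adjusted p = 0.00664).

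**Figure D5:**
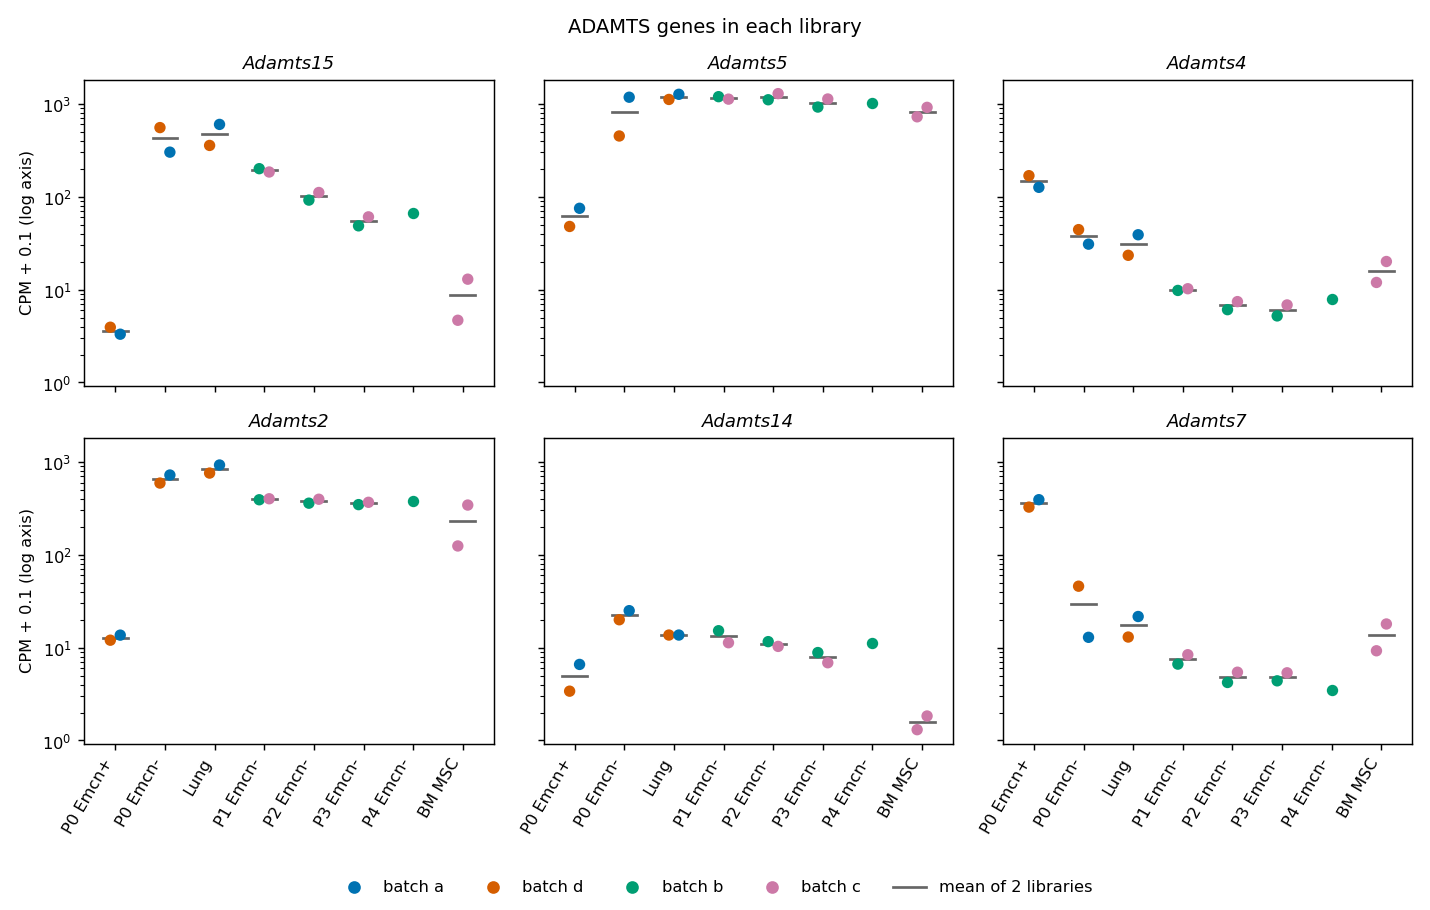
CPM + 0.1 (log axis, shared by all panels) of Adamts15, Adamts5, Adamts4, Adamts2, Adamts14 and Adamts7 in each library, 1 point per library coloured by batch, with the mean of 2 libraries as a line. Adamts15, Adamts5 and Adamts2 are lowest in P0 Emcn+ and Adamts14 is lowest in BM MSC. Adamts4 and Adamts7 are highest in P0 Emcn+ (126 to 169 and 326 to 392 CPM).

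Adamts13, the protease that cuts von Willebrand factor multimers, was at 11.3 and 11.9 CPM in P0 Emcn+ BMECs, at 2.29 to 3.83 CPM in P0 Emcn- and Lung and at no more than 0.39 CPM in any passaged or BM MSC library. It was called higher in P0 Emcn+ (2.17 ± 0.44, adjusted p = 0.00359) and fell at P1 (-2.83 ± 0.49, adjusted p = 0.00447), the latter lost without P1 replicate 1 (-2.59, adjusted p = 0.0548). Its substrate gene Vwf was at 4.82 and 6.72 CPM in P0 Emcn+ and had its highest levels in Lung, 21.9 and 201 CPM. Of the fibrillin-associated pair, Adamts10 was highest in P0 Emcn- BMECs (71.2 and 80.7 CPM) and Lung (69.1 and 74.1 CPM), and at 15.9 to 28.7 CPM in every other library. It was called lower in P0 Emcn+ (-1.71 ± 0.19, adjusted p = 0.000102) and fell at P1 (-1.92 ± 0.19, adjusted p = 0.000154). The former ended on the fold limit without P0 Emcn+ replicate 2 (-1.48, adjusted p = 0.000856). Adamts6 was at 17.2 and 13.1 CPM in BM MSC and at 1.38 to 3.12 CPM in P1 to P3 (2.73 ± 0.23, adjusted p = 4.12e-05), with 5.26 to 8.67 CPM in the P0 and Lung libraries. The orphan proteases Adamts16, Adamts17, Adamts18 and Adamts19 did not pass 1.32 CPM in any library, and of them Adamts16 and Adamts18 were called higher in BM MSC than in P1 to P3, from 67 and 32 counts in BM MSC, of which 31 of the 32 of Adamts18 were in replicate 1. The P1 to P3 libraries held 1 count of Adamts16 and none of Adamts18, so the fitted folds are not bounds.

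Genes that act on or with the members were read from lists taken from textbook knowledge. The shares of all tested genes called, given above, were 7.79% higher and 11.4% lower for P0 Emcn+ against P0 Emcn- BMECs. Of 11 membrane regulators and ADAMs tested in P0 Emcn+ against P0 Emcn- BMECs, 0 were called higher and 4 lower. Among them was Reck, a membrane-anchored MMP inhibitor, at 10.5 and 10.1 CPM against 45.4 and 90.5 CPM (-2.68, adjusted p = 0.00133). Of the 9 tested activators and genes of the plasmin system, 2 were higher and 3 lower. The urokinase gene Plau (423 and 321 against 139 and 130 CPM, 1.501, adjusted p = 0.00598) and its receptor Plaur (49.2 and 46.5 against 4.66 and 3.13 CPM, 3.62, adjusted p = 0.000159) were the higher ones, and Plat, Pcsk5 and Serpine2 the lower. The Plau value lay at the edge of the fold limit of 1.5. Of 8 clearance genes and regulators, 1 was higher and 4 were lower. Lrp1, the endocytic receptor that clears MMPs and ADAMTS enzymes, was at 172 and 186 CPM in P0 Emcn+ and at 7073 and 5489 CPM in P0 Emcn- (-5.10, adjusted p = 2.79e-06), and the higher one was Thbs1. Of 6 ADAMTS-like genes 0 were higher and 4 lower, and of 6 substrates 0 were higher and 2 lower. The versican gene Vcan, a substrate of Adamts1, Adamts4, Adamts5, Adamts9 and Adamts15, was at 23.3 and 44.2 against 1238 and 1357 CPM (-5.24, adjusted p = 7.13e-06).

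In BM MSC against P1 to P3 the same lists gave 3 higher and 1 lower of 9 activators and plasmin genes, 2 higher and 1 lower of 8 clearance genes and regulators, 3 higher and 1 lower of 6 ADAMTS-like genes, 4 higher and 1 lower of 6 substrates, and 0 higher and 4 lower of 11 membrane regulators and ADAMs, where 8.42% of all tested genes were called higher and 5.81% lower. Comp, the substrate of Adamts7 and Adamts12, was at 1190.3 and 727 CPM in BM MSC and at 16.1 to 82.2 CPM in P1 to P3 (4.47, adjusted p = 0.00113). Apart from Comp and Vcan, no substrate passed 1.16 CPM in BM MSC, so any call among the others rests on low levels. In BM MSC Acan was at 1.04 and 0.152 CPM, Bcan at 0.561 and 0.335, Ncan at 0.674 and 1.16, and Vwf at 0.842 and 1.00. Thbs1, thrombospondin-1, a protein known to bind MMPs, was at 39654 and 19304 CPM in BM MSC and at no more than 4914 CPM in any other library. In Lung, where 2.13% of all genes were called higher and 1.70% lower, 0 to 1 gene of a list was called in each direction, among them Serpine2, at 16.1 and 61.1 CPM against 659 and 453 CPM in P0 Emcn- (-3.80, adjusted p = 0.00338). At P1 only activators and plasmin genes were called, 2 of 9, both lower, where 3.07% of all genes were called lower. Between P1 and P3 edgeR called none of the 40 tested genes of these lists.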

How the data were processed

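Bulk RNA-seq libraries (KAPA RNA HyperPrep) were processed by the authors with nf-core RNASeq, with STAR alignment to GRCm38 and Salmon quantification summed to genes with tximport. The authors deposited a table of whole-number counts per gene, whose rounding and strand setting are not given in the sources used here. Counts were tested as deposited with edgeR 4.0.16 in R 4.3.3 (TMM, filterByExpr with a minimum count of 10 and total of 15, all 15 libraries, 1 coefficient per condition, quasi-likelihood test). P4, with 1 library, entered the fit and no comparison. Adjusted p-values cover all tested genes. CPM used library totals without TMM, and lengths and positions came from GENCODE M21 on GRCm38. Within-batch values are differences of TMM-scaled log2 CPM (prior count 2) with no test.

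The members and gene lists were chosen with earlier results of these data known. Members were described by library values or ranges where called in at least 1 of the 6 comparisons with at least 10 CPM in every library of its higher group, or where a TIMP, Mmp2, Mmp14 or Mmp9, which took in 26 members. Any other member given with values, such as Mmp8, Mmp10, Mmp12 or Adamts3, was chosen after its values were seen. Replicate numbers shared a batch by the labels, and same-numbered deviations correlated at 0.139 to 0.209 in P0 and Lung and at 0.354 to 0.451 in P1 to P3, so the block was fitted as an alternative. DESeq2 1.42.0 with and without ashr 2.2.63, other filters, fold limits and sample sets, and leaving out each replicate were further alternatives. The fit was tested on simulated data. Intervals and floors cover counting error only. Promoter sequences were read from RefSeq (GRCm38.p6). Some genes of the lists and some overlapping genes are not reported here by name.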

Additional observations from a re-analysis of the deposited data

How the results depend on the processing

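Of the 55 calls on named members, 37 were kept under all alternatives run, 18 were lost under at least 1 and 0 reversed. Among the named members' fold changes under the alternatives, 1891 kept their side of the threshold, 47 newly passed and 35 no longer passed. A change of sign was counted only where a call was involved, so fold changes near 0 may differ in sign among the 1891. Some of the 47 passed only because that setting had no fold limit. The setting with no fold limit reused the main fit and could not lose a call. With each replicate left out in turn, the members called ranged from 21 to 24 in P0 Emcn+ against P0 Emcn- BMECs, 3 to 7 in Lung, 12 to 17 in BM MSC against P0 Emcn-, 5 to 12 at P1, 0 in every case from P1 to P3 and 11 to 15 in BM MSC against P1 to P3. From P1 to P3, where edgeR called 0 members, the count was 1 with at least 50 counts in 2 libraries, 4 with DESeq2, 1 with ashr, 3 with no filter and 4 with only the compared groups. Lung gave 3 members with only the compared groups. With the replicate block, which uses the shared batch as pairing, 2 members were called from P1 to P3 and 106 genes. All genes called from P1 to P3 numbered 43, against 303 with DESeq2, 150 with ashr, 170 with no filter, 153 with only the compared groups and 0 to 41 with a replicate left out. With no fold limit the genes called were 6609 in P0 Emcn+, 6853 in BM MSC against P0 Emcn-, 3387 at P1 and 6206 in BM MSC against P1 to P3. With only the compared groups they were 145 in Lung, 2396 in BM MSC against P0 Emcn- and 968 at P1. With a replicate left out they ranged from 406 to 675 in Lung and from 805 to 2196 at P1. The cause was not tested. Depth limits members under about 1 CPM.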
